A study of Mus musculus with 3 samples.

Results

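The syndecans are the 4 genes Sdc1, Sdc2, Sdc3 and Sdc4, and every probe set that the platform annotation ties to one of them alone was taken, 12 probe sets out of 20380 with a single gene symbol and 4 genes out of 12393. They were followed in 3 mouse cultures of the C57/BL6 strain, 1 array each, as macrophages turned into osteoclasts, large cells with many nuclei that dissolve bone. All 3 cultures started as bone marrow cells kept for 3 days with human M-CSF (50 ng/ml), which drives macrophage growth, and then received human RANKL (150 ng/ml), the osteoclast-inducing cytokine, for 0 h (labelled precursor), 24 h (differentiating precursor) or 72 h (osteoclast). There were no replicates and no culture held for 24 or 72 h without RANKL, so RANKL and time in culture cannot be told apart. The family was chosen by the signals themselves, for the early rise of Sdc1 on these same arrays, so all values below are a description of the 3 cultures and carry no test.

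Syndecans are cell surface proteoglycans that cross the membrane a single time. Their outer part carries long heparan sulphate chains, and in Sdc1 and Sdc3 also chondroitin sulphate, which bind growth factors, chemokines and matrix proteins and present them to other receptors. A short conserved tail inside the cell ends in a sequence that binds PDZ proteins such as syntenin and connects to the actin cytoskeleton. The outer part can be shed by metalloproteinases. Sdc1, also called CD138, is best known from epithelia and plasma cells, Sdc2 from mesenchymal cells, Sdc3 from the nervous system, and Sdc4 is widespread and sits in focal adhesions.

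The 250 bases before the RefSeq start site are shown for Sdc1, Sdc3 and Sdc4, 3 of 4 members with an entry, so that the promoter of the member that rose can be read beside those of members that did not (RefSeq, GRCm38.p6; Sdc1 at chr12:8771146-8771395 on the + strand, Sdc3 at chr4:130792287-130792536 on the + strand, Sdc4 at chr2:164443189-164443438 on the - strand). They run 5′ to 3′, and capitals mark the GC box letters GGGCGG on either strand.
Sdc1: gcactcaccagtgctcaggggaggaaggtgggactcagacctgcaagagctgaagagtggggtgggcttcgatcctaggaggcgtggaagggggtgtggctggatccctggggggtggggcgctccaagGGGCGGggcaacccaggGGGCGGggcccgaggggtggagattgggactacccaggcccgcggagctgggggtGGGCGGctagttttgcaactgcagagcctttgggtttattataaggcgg
Sdc3: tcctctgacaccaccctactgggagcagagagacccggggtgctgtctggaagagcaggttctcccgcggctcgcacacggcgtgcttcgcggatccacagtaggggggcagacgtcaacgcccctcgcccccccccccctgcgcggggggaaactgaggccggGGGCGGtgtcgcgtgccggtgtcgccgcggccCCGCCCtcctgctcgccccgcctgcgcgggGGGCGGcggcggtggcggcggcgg
Sdc4: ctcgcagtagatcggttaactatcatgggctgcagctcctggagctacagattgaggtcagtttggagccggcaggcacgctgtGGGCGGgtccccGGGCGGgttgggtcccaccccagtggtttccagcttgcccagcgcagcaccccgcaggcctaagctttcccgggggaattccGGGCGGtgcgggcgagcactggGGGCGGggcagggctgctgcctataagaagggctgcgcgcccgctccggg
The windows are rich in G and C, at 66.0% for Sdc1, 76.4% for Sdc3 and 68.0% for Sdc4. GC box letters occur at 3 places in the Sdc1 window, 3 in that of Sdc3 and 4 in that of Sdc4, and 32.7% of 32851 promoter windows of this length hold at least 1. TATAA letters are found just before the start of Sdc1, as 2 overlapping matches, and once in the Sdc4 window against 22.8% of all windows. The core letters of PU.1 sites, GAGGAA, occur once in the Sdc1 window (23.3% of windows), and the NFAT core GGAAA occurs once in that of Sdc3 and 2 times in that of Sdc4 (55.6% of windows). The letters TGANTCA (AP-1, in 6.75% of windows), CACGTG (E-box, 6.02%) and the NF-kB motif (1.41%) are not in these 3 windows. All motifs were searched on both strands, and GAGGAA and the NF-kB motif can each overlap GGAAA. A match is a stretch of letters and was not tested as a binding site.

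The values are microarray signals, brought to a common scale by centring the log2 signals of each array on the median of all gene probe sets. That step removes an upward shift of 0.73 (24 h) and 0.77 (72 h) of the deposited log2 values against 0 h, and without it each difference against 0 h would be higher by that amount. Signals under the floor of 29.6 units, set at the 40th percentile over the arrays, were treated as lying at it, so a fold from the floor is a lower bound. The only error at hand is technical, the SD between changes of paired probe sets of a gene divided by the square root of 2. In log2 units it came to 0.41 (24 h against 0 h), 0.49 (72 h against 0 h) and 0.36 (72 h against 24 h). It leaves out variation between cultures, and having 3 arrays limits the precision. Marker genes were read for the labelled cell types. Of 8 osteoclast genes, which include the proteases Ctsk and Mmp9, 5, 6 and 8 were above the floor at 0, 24 and 72 h. Of all 12393 genes, 7990, 7904 and 7913 were. All 8 macrophage genes were above the floor at every time, so presence above it does not by itself separate the labels. From 0 to 72 h, 8 osteoclast genes rose by 2-fold or more and 0 fell that far. Among the macrophage genes, 1 rose and 6 fell that far (all genes, 12.5% and 12.8%).

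Sdc1 was the member that changed most. Its signal by the brightest probe set (1415943_at), which represents the gene, read 111 before RANKL, 1519.6 on the first day and 2516 at the end. The cultures differed by 13.7-fold at 24 h (log2 difference 3.78 ± 0.41, technical error) and 22.7-fold at 72 h (4.51 ± 0.49) over 0 h, so most of the distance was covered on the first day. The step from 24 to 72 h was 1.66-fold (log2 0.73 ± 0.36), which is under 2-fold. In a culture, more cells making Sdc1 and more Sdc1 RNA per cell cannot be told apart.

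The other 3 Sdc1 probe sets moved the same way but by different amounts. Probe set 1415944_at had signals of 56.3, 412 and 819 at 0, 24 and 72 h, a 7.31-fold and 14.5-fold difference from 0 h. Probe set 1437279_x_at, of a kind that can match related transcripts, went from 63.0 to 1048 and 2714, 16.6-fold and 43.1-fold. Probe set 1448158_at was under the floor at 0 h, at 8.87, and reached 282 and 797, at least 9.53-fold and at least 27.0-fold higher. In all 4 the 0 h culture was lowest and the 72 h culture highest. Over the 3 probe sets above the floor on both arrays, the log2 difference averaged 3.57 ± 0.62 (SD, 3 probe sets) at 24 h and 4.60 ± 0.79 at 72 h, and probe sets of a gene are not replicate cultures. Between 24 and 72 h the probe sets split around 2-fold, at 1.66-fold, 1.99-fold, 2.59-fold and 2.83-fold, so 2 of the 4 passed it, as did their average (log2 1.15).

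**Figure D1:**
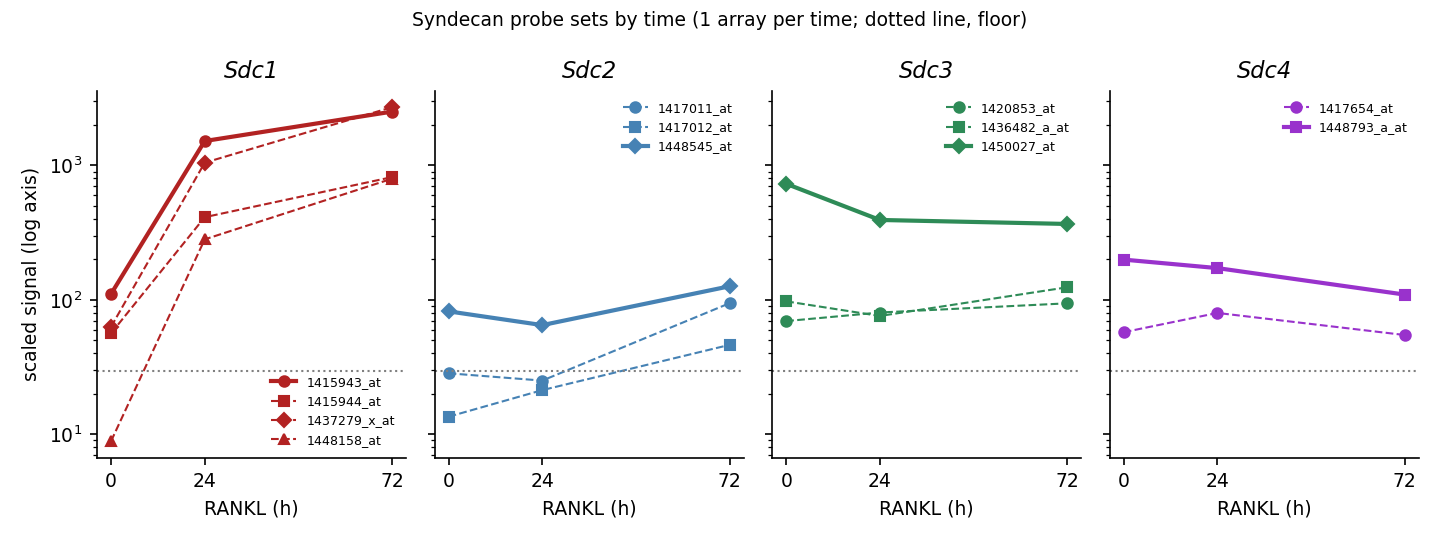
Scaled signal (log axis) of the 12 syndecan probe sets against hours of RANKL, 1 array per time; the thick line is the probe set that represents the gene and the dotted line is the floor of 29.6. All 4 Sdc1 probe sets climb between 0 and 24 h, while those of Sdc2, Sdc3 and Sdc4 stay within narrower ranges and do not run in parallel within a gene.

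Against all genes, the Sdc1 difference stood at rank 6 from the top of 8439 measured at 24 h and at rank 15 of 8558 at 72 h. By 24 h it had covered 83.9% of its 72 h log2 difference by the brightest probe set, and 74.3% and 74.7% by the others above the floor throughout. Among osteoclast genes above the floor on all 3 arrays, this share was 42.0% for Ctsk, 35.5% for Mmp9 and 65.0% for Acp5, the tartrate-resistant acid phosphatase. Nfatc1, which drives the osteoclast gene programme, was at 116%, since its log2 difference was 2.24 at 24 h and 1.94 at 72 h, a gap within the technical error. By this share Sdc1 lay between Nfatc1 and the proteases Ctsk and Mmp9. The family was chosen for this early rise and the shares carry no error, so no order in time is read from them. Scin (84.2%) and Rhou (81.2%) had shares like that of the brightest Sdc1 probe set. Both are among the 5 genes picked below for a pattern like that of Sdc1, so the pick itself favours a like share. The others picked were at 75.5% (Cyp2s1), 65.3% (Car2) and 64.3% (Cd109). Calcr, Itgb3, Ocstamp and Oscar were under the floor on an array and have no share.

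Sdc1 is also a marker of plasma cells and epithelia, so genes of both were read beside it. Of 10 plasma and B cell genes with a probe set, 4 were above the floor before RANKL and 2 on each later array. Ighm, the immunoglobulin mu chain, was above it throughout at 51.6, 103 and 50.4, a 1.99-fold difference at 24 h. Jchain (62.4) and Cd79b (45.1) were above it at 0 h only, and Cd79a, Ms4a1, Pax5, Tnfrsf17, Pou2af1 and Irf4 were under it at every time. The summed signal of the list was 1851, 1136 and 1409 in time order, of which Xbp1, a transcription factor that many secretory cells use, made up 1615, 909 and 1266. Among 6 epithelial genes, 0, 2 and 1 were above the floor at 0, 24 and 72 h, with summed signals of 80.3, 144 and 142. The keratin Krt8 read 27.9, 39.4 and 61.9, at least 2.09-fold higher at 72 h, and Krt14 passed the floor at 24 h alone (31.4). Epcam, Cdh1, Krt5 and Krt18 were under the floor at every time. The part of such cells in the Sdc1 signal was not tested.

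Sdc2 was dim and its signal was highest at 72 h. The brightest probe set (1448545_at) read 82.0 at 0 h, 64.8 at 24 h and 126 at 72 h. Its log2 differences from 0 h were -0.34 ± 0.41 at 24 h and 0.62 ± 0.49 at 72 h, both within 2-fold, and 0.96 ± 0.36 from 24 to 72 h, just under it. The 24 h difference was smaller than its technical error and had the other sign on the deposited scale (0.39) and with probe sets averaged (0.0455). The 72 h difference passed 2-fold in both of these settings (1.39 and 1.38). The average was taken before the floor was applied, so the dimmer probe sets entered it with signals under the floor at 0 and 24 h. Both averaged values therefore rest in part on signals that are elsewhere set to the floor. Probe set 1417011_at was under the floor at 0 h (28.4) and at 24 h (25.0) and reached 94.3 at 72 h, at least 3.19-fold higher. Probe set 1417012_at was likewise under it at 13.5 and 21.3 and read 46.2 at 72 h, at least 1.56-fold higher. All 3 probe sets therefore had their highest value at 72 h, and 1 of them passed 2-fold.

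Genes of stromal cells and osteoblasts, the cells best known for Sdc2, had their highest summed signal at the same time. Of 8 such genes with a probe set, 6, 5 and 7 exceeded the floor in time order (all genes, 7990, 7904 and 7913). Their summed signal was 2204, 2321 and 7053. At 72 h most of it came from the collagen genes Col1a2 (3469), Col3a1 (1888) and Col1a1 (1433), whereas Dcn and Lum were highest at 0 h (127 and 42.9). The collagen gene Col1a1 was 6.98-fold, Col1a2 3.80-fold and Col3a1 2.34-fold higher at 72 h than at 0 h, Dcn (decorin) was 2.78-fold lower, and Lum was under the floor at 72 h. The part of these cells in the Sdc2 values was not tested.

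Sdc3 gave values that depended on the probe set. The brightest (1450027_at) read 730.0 at 0 h, 393 at 24 h and 367 at 72 h, which is 1.86-fold lower at 24 h (log2 -0.89 ± 0.41) and 1.99-fold lower at 72 h (-0.99 ± 0.49), just inside 2-fold. Probe set 1420853_at read 69.4, 80.4 and 94.1, with log2 differences from 0 h of 0.21 and 0.44. Probe set 1436482_a_at read 97.4, 75.8 and 124, with -0.36 and 0.35. The brightest probe set was thus highest at 0 h and the others at 72 h. The 3 log2 differences at 72 h had a mean of -0.07 and an SD of 0.80, wider than the technical error over all genes, so no direction is given for the gene.

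Sdc4 stayed within 2-fold throughout. The brightest probe set (1448793_a_at) read 199 at 0 h, 172 at 24 h and 109 at 72 h, with log2 differences from 0 h of -0.21 ± 0.41 and -0.86 ± 0.49. Probe set 1417654_at read 57.4, 79.8 and 54.7, with 0.48 and -0.07. Both were lower at 72 h than at 24 h, by log2 differences of -0.66 and -0.55 ± 0.36. The order of 0 and 24 h was not the same in the 2 probe sets, and neither gap was much beyond the technical error. On the deposited scale the difference at 24 h was 0.52.

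The deposited signals, before centring, show what the common scale does to each member. For the brightest Sdc1 probe set they were 78.2, 1781 and 3036 in time order. For Sdc2 they were 58.0, 75.9 and 152, and for Sdc3 516, 460.3 and 443. Sdc4 read 141, 202 and 132. The order of the 3 arrays is the same before and after centring for Sdc1 and Sdc3, whereas for Sdc2 and Sdc4 the places of the 0 h and 24 h arrays change. Among all measured genes, ranked from the most raised, Sdc2 stood at 6257 of 8439 at 24 h and 1873 of 8558 at 72 h, Sdc3 at 7505 and 7457, and Sdc4 at 5765 and 7219. For the step from 24 to 72 h the ranks of 8391 genes were 622 for Sdc2, 915 for Sdc1, 3938 for Sdc3 and 6616 for Sdc4. Sdc2 and Sdc1 therefore had the higher places in the later step, and Sdc1 alone was near the top in the early one.

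Set side by side, 1 of the 4 syndecans was at least 2-fold higher at 24 h and 0 were lower, where 13.2% of all measured genes were higher and 9.22% lower. At 72 h against 0 h, 1 of 4 was higher and 0 lower, with 12.5% and 12.8% of all genes. From 24 to 72 h, 0 of 4 passed in either direction by their brightest probe sets, with 6.92% and 10.0% of all genes. The median log2 difference over the 4 was -0.27 at 24 h and -0.12 at 72 h, beside 0.12 and -0.01 over all measured genes. Since Sdc1 chose the family, nothing is read from these counts. Both comparisons against 0 h share the same 0 h array. Under 9 other processing settings Sdc1 stayed at least 2-fold higher at both times, while Sdc3 passed 2-fold lower at 24 h after 2% trimmed mean scaling (-1.09) and quantile normalization (-1.13), and at 72 h under these (-1.12 and -1.11) and hybridization control scaling (-1.04).

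**Figure D2:**
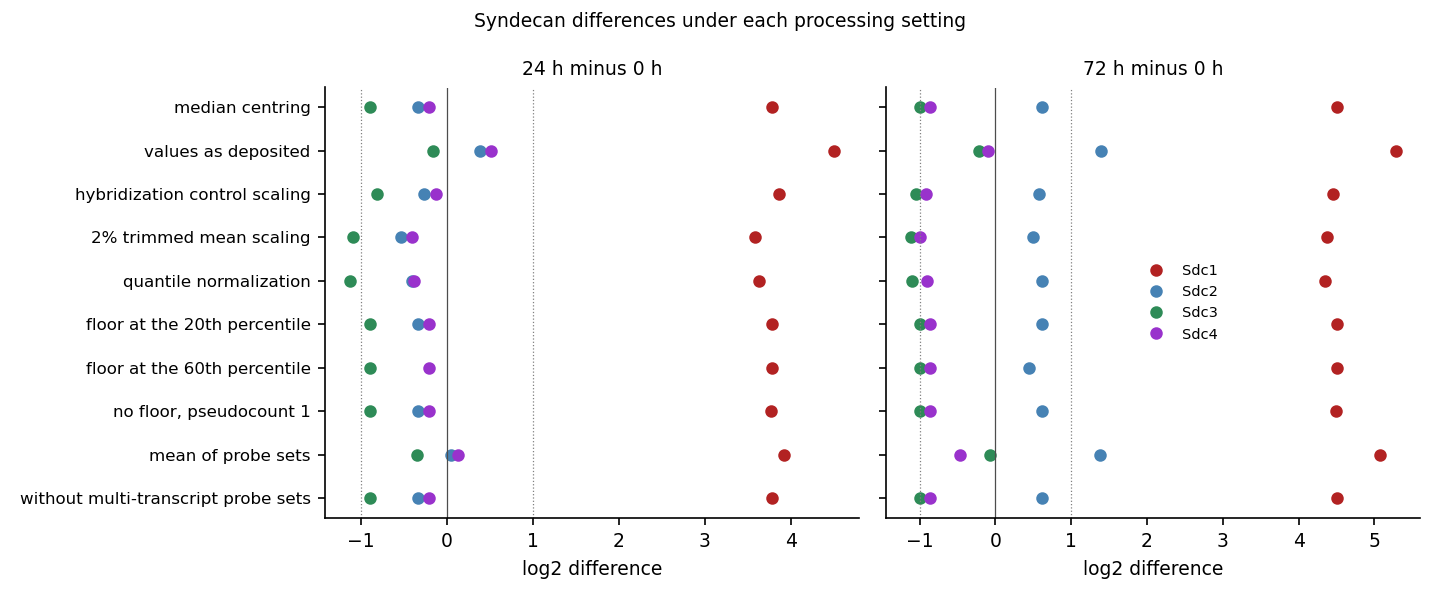
Log2 difference of each syndecan (brightest probe set, or the mean of its probe sets in that setting) under 10 processing settings (rows), for 24 h (left) and 72 h (right) against 0 h; dotted lines mark 2-fold. Sdc1 lies between 3.58 and 4.51 at 24 h and between 4.35 and 5.28 at 72 h, and Sdc2 has no value at 24 h with the floor at the 60th percentile because both arrays were under it.

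The genes whose pattern lay closest to each syndecan were found by the distance between their pairs of log2 differences (24 h and 72 h against 0 h) among 7163 other genes above the floor on all 3 arrays. For Sdc1 the closest was Scin, an actin-severing protein of the gelsolin family, at a distance of 0.04, with signals of 34.0, 462 and 754 and log2 differences of 3.76 and 4.47. The next were Cd109 (distance 0.75), Cyp2s1 (0.81), Rhou (1.01) and Car2, the carbonic anhydrase that supplies acid for resorption (1.02). Within a distance of 0.5, Sdc1 had 1 gene, whereas Sdc2 had 442, Sdc3 475 and Sdc4 854. For Sdc2 the closest were Stam2, Rnpc3, Ttc39b, Tollip and Tspan6, at distances from 0.04 to 0.06. For Sdc3 they were Bcl6, App, Chkb, Snx11 and Tshz1 (0.03 to 0.05), and for Sdc4 Dhx16, Lgals1, Tnfaip8, Tes3-ps and Pkd1 (0.01 to 0.03). With 3 arrays such closeness is common for genes that change little. That of Scin to Sdc1 rests on the brightest Sdc1 probe set and on a Scin signal near the floor at 0 h. The other Sdc1 probe sets above the floor throughout had log2 differences of 2.87 and 3.86, and of 4.06 and 5.43. A distance of 0.04 is also under the technical errors of 0.41 and 0.49.

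**Figure D3:**
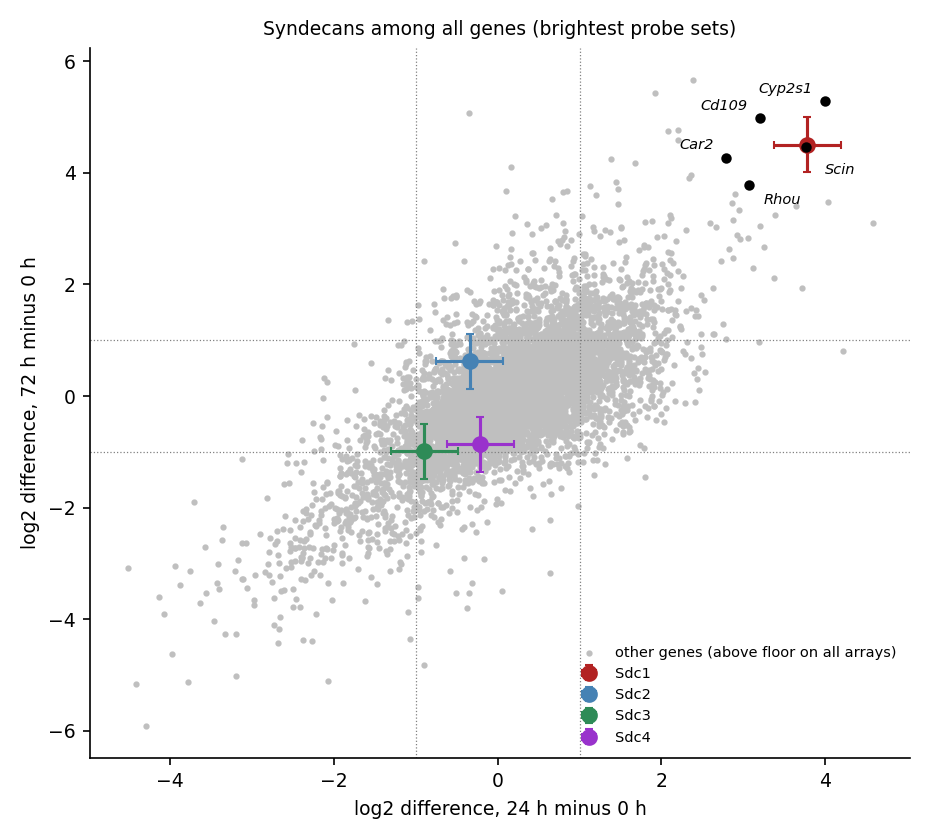
Log2 difference at 72 h against that at 24 h, both relative to 0 h and by brightest probe sets, for genes above the floor on all 3 arrays (grey), the 4 syndecans with the technical error as bars, and the 5 genes closest to Sdc1 (black). Sdc1 lies in the sparse upper right corner with Scin on top of it, and the other 3 syndecans lie inside the cloud.

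Around the syndecans, 10 lists covered 129 genes of the proteins that build, sulphate, cut, bind and anchor heparan sulphate proteoglycans, 111 of them with a single-symbol probe set. Of 89 measured at 24 h, 19 exceeded their 0 h signal by 2-fold or more and 7 fell as far below it (21.3% and 7.87%), and of 93 measured at 72 h, 30 exceeded it and 10 fell below (32.3% and 10.8%). Over all measured genes the shares higher and lower were 13.2% and 9.22% at 24 h and 12.5% and 12.8% at 72 h, with median log2 differences of 0.12 and -0.01. On the deposited scale, which raises every difference against 0 h alike, the list counts were 38 and 1 at 24 h and 48 and 4 at 72 h, beside 3302 and 314, and 2985 and 455, over all genes. The numbers measured on that scale are not given, so these counts cannot be compared as shares. Whether the lists stand apart from all genes there is therefore left undecided. The lists were also chosen with earlier results of these data known.

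Among the enzymes that build and sulphate heparan sulphate chains, 2 of 11 measured were higher and 0 lower at 24 h (all genes, 13.2% and 9.22%), and 4 were higher and 1 lower at 72 h (all genes, 12.5% and 12.8%), with median log2 differences of 0.52 and 0.23. Ext1, a subunit of the chain polymerase, had signals of 205, 544 and 1068 and was 2.66-fold and 5.22-fold higher. Ext2, its partner subunit, was 1.87-fold and 2.61-fold above 0 h. Hs2st1, which sulphates the uronic acid, was 3.21-fold and 2.78-fold higher by the brightest of 3 probe sets, while the dimmest differed by log2 values of 0.17 and 0.85. Sulf2, which removes sulphate groups from finished chains, read 392, 430 and 143 and was 2.75-fold lower at 72 h. The polymerase subunits had their highest signals at 72 h, as Sdc1 had.

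Of the enzymes of the linker that joins chain to protein, 1 of 10 was higher and 1 lower at 24 h, where 13.2% and 9.22% of all genes were, and 0 and 1 at 72 h, where 12.5% and 12.8% were. Their medians of -0.09 and -0.17 were above 0 on the deposited scale (0.64 and 0.59). Xylt2, a xylosyltransferase that starts the linker, fell from 143 to 45.7 and 43.2, 3.14-fold and 3.32-fold. B3galt6, a galactosyltransferase of the linker, was 2.10-fold higher at 24 h, from a signal of 34.9 near the floor, and its other probe set was under the floor on every array. Xylt1 had no single-symbol probe set.

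Other proteoglycans moved in both directions. Of the cell surface ones, 4 were measured at 24 h, with 2 higher and 1 lower (all genes, 13.2% and 9.22%), and 5 at 72 h, with 4 higher and 1 lower (all genes, 12.5% and 12.8%). Gpc1, a lipid-anchored glypican, read 69.8, 327 and 167 and was 4.69-fold, then 2.39-fold, above its 0 h signal. Gpc4, another glypican, was 2.45-fold higher at 72 h. Cd44, a hyaluronan receptor that can carry heparan sulphate, was 3.99-fold and 3.24-fold higher. Nrp1, a co-receptor of semaphorins and VEGF, read 1370.2, 115 and 210.3, which is 11.9-fold and 6.51-fold lower.

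Of 14 measured partners of the syndecan tail, 2 were higher and 0 lower at 24 h (all genes, 13.2% and 9.22%) and 3 higher and 0 lower at 72 h (all genes, 12.5% and 12.8%), with medians of 0.10 (-0.10 after trimmed mean scaling) and 0.20. Sdcbp, syntenin, the PDZ adaptor that holds the tail, was bright and within 2-fold at 3783, 3040 and 3907, while its dimmer probe set was at a log2 difference of -1.01 at 24 h. The kinase Src, which phosphorylates syndecan tails, was 4.35-fold and 5.92-fold higher. Cttn, cortactin, was within 2-fold at 24 h (1.33-fold) and 5.88-fold higher at 72 h. Tiam1, an activator of Rac that binds syndecan tails, was 2.75-fold higher at 24 h, while its other probe set was under the floor throughout. Gipc1, a PDZ adaptor, was 2.35-fold higher at 72 h. So the syntenin signal did not follow Sdc1.

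Proteins that cut syndecans from the surface, and inhibitors of such proteases, had 8 measured members at 24 h, 1 of them higher and 0 lower (all genes, 13.2% and 9.22%). At 72 h 10 were measured, with 3 higher and 1 lower (all genes, 12.5% and 12.8%). Mmp9 read 175, 665 and 7535 and was 3.79-fold and 43.0-fold higher. Mmp2 was 2.96-fold and the inhibitor Timp1 3.95-fold higher at 72 h. Adam17, a membrane-bound sheddase, read 859, 669 and 344, a log2 difference of -1.32 at 72 h, with -0.66 and -1.28 by its other probe sets.

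**Figure D4:**
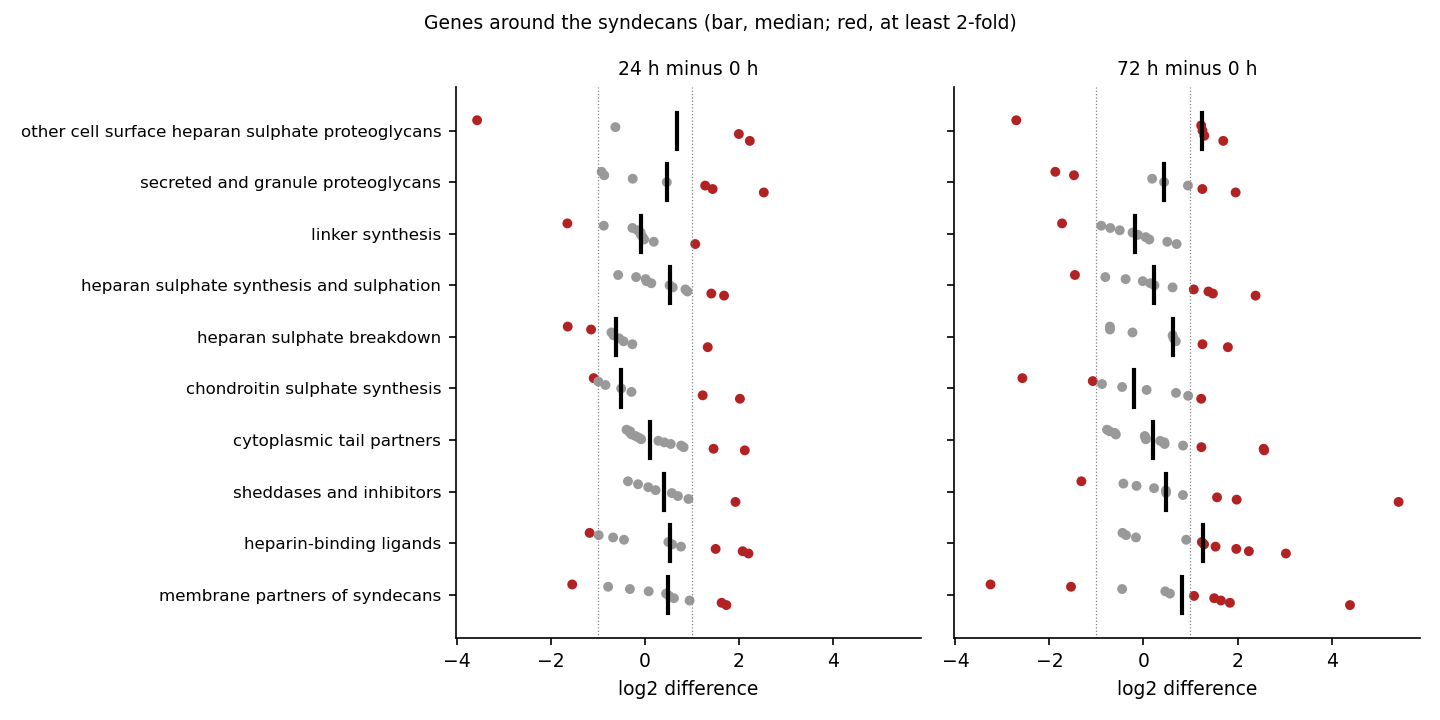
Log2 difference against 0 h of the measured members of 10 gene lists around the syndecans, at 24 h (left) and 72 h (right); each point is 1 gene by its brightest probe set, red points are at least 2-fold from 0 h, bars are list medians and dotted lines mark 2-fold. Heparin-binding ligands have the highest list median at 72 h (1.27), close to that of other cell surface proteoglycans (1.26).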

How the data were processed

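Each array was deposited as linear intensity values by probe set, and the submitters' processing notes name MAS5; version, scaling target and genome build are not given in the sources used here. Per the labels' protocols, biotin-labelled cRNA was made from 5 µg of total RNA. Of 22690 probe sets, 64 were controls. Genes were named by GEO's platform annotation (2016), with 20380 probe sets naming 1 gene, 691 several and 1555 none; the latter kinds named no gene.

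Log2 signals were centred on each array's median over gene probe sets and put on the mean scale of the 3 arrays. Values under the 40th percentile were set to that floor. A gene was represented by its brightest single-symbol probe set, was measured where at least 1 of the compared arrays was above the floor, and was called at a log2 difference of 1 (2-fold). A single array stands for each time, so differences have no replicate check and carry no p-value. The steps were tested on simulated data with independent noise for each probe set and changes in bright genes only. That test does not cover changes near the floor. All steps were run in Python 3.11.15 with numpy 2.4.6 and pandas 2.3.3.

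The members, the 10 pathway lists and the 8 marker lists were chosen with earlier results of these data known. Named list genes are the up to 4 largest differences of at least 2-fold against 0 h in each list, plus Ext1, Xylt1, Hpse, Sdcbp, Adam17, Srgn and Gpc1. The genes closest to a syndecan are the 5 at the smallest Euclidean distance. Marker genes, osteoclast genes and list members under the floor are named besides. RefSeq (GRCm38.p6) gave the promoter windows, read for the 250 bases before the start. 9 alternatives were tried: 4 scalings, 3 floors and 2 probe set rules.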

Additional observations from a re-analysis of the deposited data

How the results depend on the processing

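No paired analysis was possible because each time has 1 array, and no replicate could be left out. On the deposited scale the log2 differences at 24 h were 4.51 for Sdc1, 0.39 for Sdc2, -0.16 for Sdc3 and 0.52 for Sdc4, and at 72 h against 0 h they were 5.28, 1.39, -0.22 and -0.0932. With probe sets averaged, they were -0.35 for Sdc3 at 24 h, 5.07, 1.38 and -0.0690 for Sdc1, Sdc2 and Sdc3 at 72 h against 0 h, and 1.15, 1.33 and 0.28 for these 3 from 24 to 72 h. That average was taken before the floor was applied, so the Sdc1 differences from 0 h and all Sdc2 differences include signals under it. With the floor at the 60th percentile the Sdc2 step from 24 to 72 h was 0.45, and its 24 h difference had no value. The other syndecan differences moved by less than the technical error.

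Counts over all genes depended on scale and floor. On the deposited scale 3302 genes were higher and 314 lower at 24 h, and 2985 and 455 at 72 h against 0 h. The share of calls that were higher was 58.8% at 24 h, 91.3% on the deposited scale, 42.2% after trimmed mean scaling and 46.9% after quantile normalization; at 72 h against 0 h it was 49.4% and, on the deposited scale, 86.8%; and from 24 to 72 h it was 40.9% and, with hybridization control scaling, 30.8%. A floor at the 20th percentile left 1307 genes lower at 24 h, 1659 lower at 72 h against 0 h, and 981 higher and 1267 lower from 24 to 72 h. With it at the 60th percentile 712 were lower at 72 h against 0 h and 364 higher from 24 to 72 h. With no floor and a pseudocount of 1 signal unit, 1869 were higher and 1750 lower at 24 h, 1861 and 2102 at 72 h against 0 h, and 1351 and 1696 from 24 to 72 h.

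Of the pathway genes, 38 were higher and 1 lower at 24 h on the deposited scale (all genes, 3302 and 314). At 72 h against 0 h the counts on that scale were 48 and 4 (all genes, 2985 and 455). The number lower at 24 h was 7 under median centring, 13 after trimmed mean scaling and 13 after quantile normalization. It was 16 under the lower floor (20th percentile) and 18 with no floor. Over all genes the matching counts were 778, 1062, 962, 1307 and 1750. These rose too, by a smaller factor than the pathway count in each of these settings. The numbers measured outside median centring are not given, so no shares are set beside these counts. At 72 h against 0 h, 6 were lower with the floor at the 60th percentile (all genes, 712) and 17 with no floor (all genes, 2102). From 24 to 72 h, median centring gave 17 higher and 8 lower (all genes, 581 and 839). With hybridization control scaling 13 were lower (all genes, 1101). With the floor at the 60th percentile 5 were lower (all genes, 563), and 26 were higher with no floor (all genes, 1351). Of 810 further values for single lists, 127 moved, and no median past 2-fold changed sign. Medians nearer 0 did: on the deposited scale those of linker enzymes (0.64 at 24 h, 0.59 at 72 h), chondroitin sulphate enzymes (0.22, 0.42) and, at 24 h, heparan sulphate breakdown (0.12); after trimmed mean scaling that of tail partners (-0.10 at 24 h, 0.01 from 24 to 72 h); and from 24 to 72 h with hybridization control scaling those of chondroitin sulphate enzymes and membrane partners (both -0.02). The cause was not tested, except that a floor sets how many genes are measured.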

Other observations

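Chondroitin sulphate enzymes counted 2 higher and 1 lower among 7 at 24 h (all genes, 13.2% and 9.22%). At 72 h, 1 was higher and 2 were lower among 8 (all genes, 12.5% and 12.8%). Their medians of -0.51 and -0.19 were above 0 on the deposited scale (0.22 and 0.42). Chst7, a sulphotransferase, read 33.2, 135 and 34.8 and so was 4.05-fold higher at 24 h and back at its start by 72 h. Chpf, a polymerising factor, rose from the floor to 69.2 at both times, at least 2.34-fold. The related Chpf2 was 2.13-fold lower at 24 h. Chst12, another sulphotransferase, read 176, 88.6 and 26.6, and was at least 5.96-fold lower at 72 h. Neither kind of chain therefore had all its enzymes higher.

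In heparan sulphate breakdown, 1 of 8 enzymes was higher and 2 lower at 24 h (all genes, 13.2% and 9.22%), and 2 were higher and 0 lower at 72 h (all genes, 12.5% and 12.8%). The median was -0.61 at 24 h (0.12 on the deposited scale) and 0.63 at 72 h. The lysosomal sulphamidase Sgsh was 3.12-fold lower at 24 h by its brightest probe set (a dim one gave a bound of -0.34 on the log2 scale), and the iduronidase Idua 2.21-fold, with another Idua probe set at a log2 difference of -0.30. Glb1, the lysosomal beta-galactosidase, read 285, 195 and 989 and was 3.47-fold higher at 72 h. The iduronate sulphatase Ids was 2.52-fold and 2.39-fold higher, from 36.7 near the floor. Hpse, the enzyme that cuts the chains outside lysosomes, had no single-symbol probe set.

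Secreted and granule proteoglycans had 7 measured members, with 3 higher and 0 lower at 24 h (all genes, 13.2% and 9.22%). At 72 h 2 were higher and 2 lower (all genes, 12.5% and 12.8%). Col18a1, a basement membrane collagen with heparan sulphate, was 5.76-fold higher at 24 h and 1.36-fold above 0 h at 72 h, where its other probe set was below 0 h (log2 -0.32). Srgn, serglycin, the proteoglycan of blood cell granules, read 1304, 689 and 356 and was 3.67-fold lower at 72 h. Over the same interval the 6 neutrophil granule markers were all at least 2-fold lower, where 12.8% of all genes were. Their summed signal was 8289, 5179 and 539 in time order. All 5 platelet markers were at least 2-fold lower too, with 8824, 1719 and 800.3. The part of these cells in the Srgn value was not tested. Bgn, biglycan, was 3.89-fold and Dcn 2.78-fold apart from 0 h at 72 h, the first higher and the second lower.

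Among 10 measured ligands that bind heparan sulphate, 3 were higher and 1 lower at 24 h (all genes, 13.2% and 9.22%). At 72 h 6 were higher and 0 lower (all genes, 12.5% and 12.8%), and the list had medians of 0.54 and 1.27. Hbegf, a heparin-binding growth factor, was 2.83-fold and 8.16-fold higher, and Pdgfb, a platelet-derived growth factor chain, differed by log2 values of 2.20 and 2.24. Lpl, lipoprotein lipase, which docks on heparan sulphate, was 4.22-fold and 2.89-fold higher, with a log2 difference of 0.75 at 72 h by its other probe set. Fn1, fibronectin, read 692, 1031 and 2717 and was 3.93-fold higher at 72 h, when the collagen genes named above were also highest, and the part of stromal cells in this value was not tested. Fgf1, Fgf2, Hgf, Ptn, Vtn and Tnfrsf11b were under the floor at every time.

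Integrins and growth factor receptors that work with syndecans had 10 measured members, with 2 higher and 1 lower at 24 h (all genes, 13.2% and 9.22%). At 72 h 5 were higher and 2 lower (all genes, 12.5% and 12.8%). Itgav, the integrin alpha v chain, read 1174, 3633 and 4197 and was 3.10-fold and 3.58-fold higher by its brightest probe set. Another Itgav probe set had log2 differences of 3.19 and 4.32. The dimmest, under the floor at 0 h, had at least 0.45 and 2.02. Itgb3, its partner in the osteoclast vitronectin receptor, was near or under the floor at 0 and 24 h (36.9 and 6.70) and read 774 at 72 h, 21.0-fold above 0 h. Itga5, of the fibronectin receptor, was 3.32-fold and 2.84-fold higher. Itga6, of laminin receptors, read 1433, 490.4 and 150.5 and was 2.92-fold and 9.52-fold lower. On these arrays Sdc1 and Itgav were both higher at 24 h, when Itgb3 was under the floor.

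For each syndecan, the 2 nearest protein-coding genes with a single-symbol probe set on either side in the RefSeq gene order were read for comparison. This set was chosen after the syndecan values were seen. It holds a matrilin gene beside Sdc1, Sdc3 and Sdc4. None was among the genes read beside Sdc2, where genes further out were not read. Beside Sdc1, the RNA-binding protein gene Pum2 had log2 differences from 0 h of -0.18 at 24 h and -0.35 at 72 h, the lysosomal membrane protein gene Laptm4a -0.45 and -0.19, the GTPase gene Rhob -1.23 and -0.84, and Matn3 was under the floor on all 3 arrays. Pum2 and Laptm4a thus stayed within 2-fold where Sdc1 was over 2-fold higher. Matn1 beside Sdc3 and Matn4 beside Sdc4 were under the floor on all 3 arrays as well. Nkain1, the nearest measured gene before Sdc3, read 60.8, 441 and 667 at 0, 24 and 72 h, log2 differences of 2.86 and 3.46, whereas Laptm5 on the other side of Sdc3, a lysosomal protein of blood cells, read 3306, 1818 and 2101, with -0.86 and -0.65. Snrnp40, the next gene before Sdc3, had 1.33 and -0.03. Sys1 beside Sdc4 had 0.15 and -0.90, and Cpq beside Sdc2 -0.63 and -0.47.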
